A study of Mus musculus with 6 samples.

Results

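Wnt ligands are secreted, lipid-modified glycoproteins that act over short distances between cells, and 10 of their genes were followed here in cultured mouse cerebellar granule cells (GCs) after YTHDF2 knockdown (KD). They were Wnt2b, Wnt3, Wnt4, Wnt5a, Wnt5b, Wnt7a, Wnt7b, Wnt9a, Wnt10a and Wnt11, which is 10 of the 19 Wnt ligand genes of the annotation and 10 of the 53421 genes of the count table. They were set as a list of names, chosen with earlier results of these data known. The question was where Wnt5a, the ligand the study followed, stands among the others. The GCs came from C57BL/6 pups given as postnatal day 8 and carried a lentiviral short hairpin RNA, either against Ythdf2 (shYthdf2, 3 libraries) or as a control (shCtrl, 3 libraries). Both groups went through infection and puromycin selection, so these are shared. Libraries are numbered 1, 2 and 4 in each group by their names.

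The sample titles and genotype labels give the groups the other way round from the library names. The names were followed here, and every direction below would be inverted if the titles were right instead. In this assignment Ythdf2 itself, the target of the hairpin, had 501, 402 and 501 normalized counts in shYthdf2 libraries 1, 2 and 4, against 618, 841 and 628 in shCtrl. All knockdown libraries lay below all control libraries, as was so for 13.4% of all genes tested. The level left was 67.3% of control, with a log2 fold change of -0.57 (SE 0.16) and an adjusted p = 0.125 in edgeR's quasi-likelihood test. DESeq2 gave an adjusted p = 0.0392. Within library numbers 1, 2 and 4 the differences were -0.30, -1.06 and -0.33 on the log2 scale, widest in library 2. Without shCtrl library 2 the log2 fold change was -0.41 (adjusted p = 0.0683 in edgeR's test). Normalized counts are counts scaled with TMM factors to 1 common library size, and adjusted p-values are corrected over all 17214 genes that passed the filter on low counts.

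Libraries held 17246821 to 21546595 counts. Libraries 1 and 4 lay close together in each group, and library 2 stood apart from them. Counts of libraries 1 and 4 differed by a chi-square per degree of freedom of 3.12 (shYthdf2) and 4.28 (shCtrl), against 29.5 to 49.2 between library 2 and the others of its group. The study's methods call the libraries of a group biological replicates, without saying which cultures they came from. Whether libraries 1 and 4 of a group are independent is therefore not known. If they are not, the SDs, intervals and p-values below may overstate precision. This holds most for fits without shCtrl library 2 or with a batch term for library 2. The 10 GC markers, Neurod1, Pax6 and Zic1 among them, were present in every library and summed to 126834 to 134431 normalized counts, of which Zic1 alone gave 60665 to 66405. Neurod1 was at 14844 to 15480 in shYthdf2 and 18594 to 19266 in shCtrl (adjusted p = 0.124 in edgeR's test). In bulk RNA, fewer cells of a type and less RNA per cell cannot be told apart.

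As background, Wnts are acylated by Porcn, carried to the surface by Wls, and bound by Frizzled receptors. With the co-receptors Lrp5 and Lrp6 they stabilise beta-catenin, and with Ror, Ryk or Vangl proteins they act on the cytoskeleton and cell polarity. In the cerebellum, Wnt7a from GCs is known for remodelling the mossy fibre terminals that contact them, and Wnt5a is known as a guidance cue for axons. YTHDF2 binds mRNAs that carry N6-methyladenosine (m6A) and speeds their decay. The m6A methyltransferase favours a short sequence whose core can read GGACT.

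Because that core bears on how YTHDF2 finds an mRNA, GGACT was searched on the sense strand of the longest protein-coding transcript of each ligand. A match is a description of letters and not a mapped methylation site. Wnt5a held 10 matches in 7010 bases, with 1 in the 5′ UTR, 4 in the coding sequence and 5 in the 3′ UTR. The windows below are from GRCm38, in lower case with GGACT in capitals. The first pair is shown because the match lies in matching coding sequence of the paralogs Wnt5a and Wnt5b, and the others because they are the matches in the Wnt5a 3′ UTR.
Wnt5a coding, chr14:28518411-28518431, plus strand: ctgcctcgGGACTggttgtgg
Wnt5b coding, chr6:119440429-119440449, minus strand: ctgcctcgGGACTggctgtgg
Wnt5a 3′ UTR, chr14:28524045-28524065, plus strand: ccctttctGGACTctctgctg
Wnt5a 3′ UTR, chr14:28524755-28524775, plus strand: gcagccctGGACTtcgagagg
Wnt5a 3′ UTR, chr14:28524826-28524846, plus strand: cccagggaGGACTtgggactg
Wnt5a 3′ UTR, chr14:28524833-28524853, plus strand: aggacttgGGACTgtcctgtc
Wnt5a 3′ UTR, chr14:28526136-28526156, plus strand: tctggccaGGACTgtagactg
The coding windows shared 20 of 21 bases, with the substitution T16C from Wnt5a to Wnt5b, counted from 1 at the 5′ end. The windows of the 3′ UTR that start at 28524826 and 28524833 overlap.

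The density of GGACT did not set Wnt5a apart from the other ligands. Wnt5a had 1.43 matches per kb, and 71.1% of the 13719 genes tested with a coding transcript had that density or less. Among all of these genes, 93.1% held at least 1 match, and the median was 1.05 per kb with quartiles at 0.656 and 1.52. Wnt10a (2.03 per kb), Wnt11 (1.74), Wnt5b (1.69), Wnt4 (1.67) and Wnt9a (1.51) held more per kb than Wnt5a. Wnt2b (1.21), Wnt3 (0.975), Wnt7a (0.946) and Wnt7b (0.882) held fewer. By number, the 10 matches of Wnt5a were the most of the 10 ligands, and its transcript was also their longest.

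In edgeR's test without a block over all 6 libraries, Wnt5a had the largest log2 fold change and the smallest p of the 9 ligands tested. Wnt5a did not pass the adjusted threshold of 0.05. It is a ligand known for beta-catenin-independent signalling in cell polarity and axon guidance. Wnt5a (ENSMUSG00000021994, chr14:28504750-28527448, plus strand) had 314, 325 and 308 normalized counts in shYthdf2 libraries 1, 2 and 4, against 149, 192 and 107 in shCtrl. The shYthdf2 libraries were nearly equal and all above the shCtrl libraries, whose highest was library 2. On average this was 315 ± 8.63 against 149 ± 42.6 (SD, n = 3 each), or 212% of control. The log2 fold change was 1.08 (SE 0.22, 95% interval 0.56 to 1.59), with an adjusted p = 0.0679 in edgeR's test, and Wnt5a stood at rank 374 among the genes by p. With the replicate number as a block the adjusted p was 0.0532. DESeq2 gave an adjusted p = 0.000553, and edgeR without shCtrl library 2 gave 0.00654, within a range of 0.000553 to 0.303 over 14 alternatives. Wnt7a had a larger log2 fold change than Wnt5a with the block (1.25 against 1.11) and with limma-voom (1.32 against 1.11). The same held with a batch term for library 2 (1.24 against 1.10) and without shCtrl library 2 (2.21 against 1.30). Gm2670, on the other strand at Wnt5a, had 4 to 10 counts, against at least 97 for Wnt5a. Since these libraries were among the data from which the study picked Wnt5a, its difference in them is not independent evidence of a direction.

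**Figure D1:**
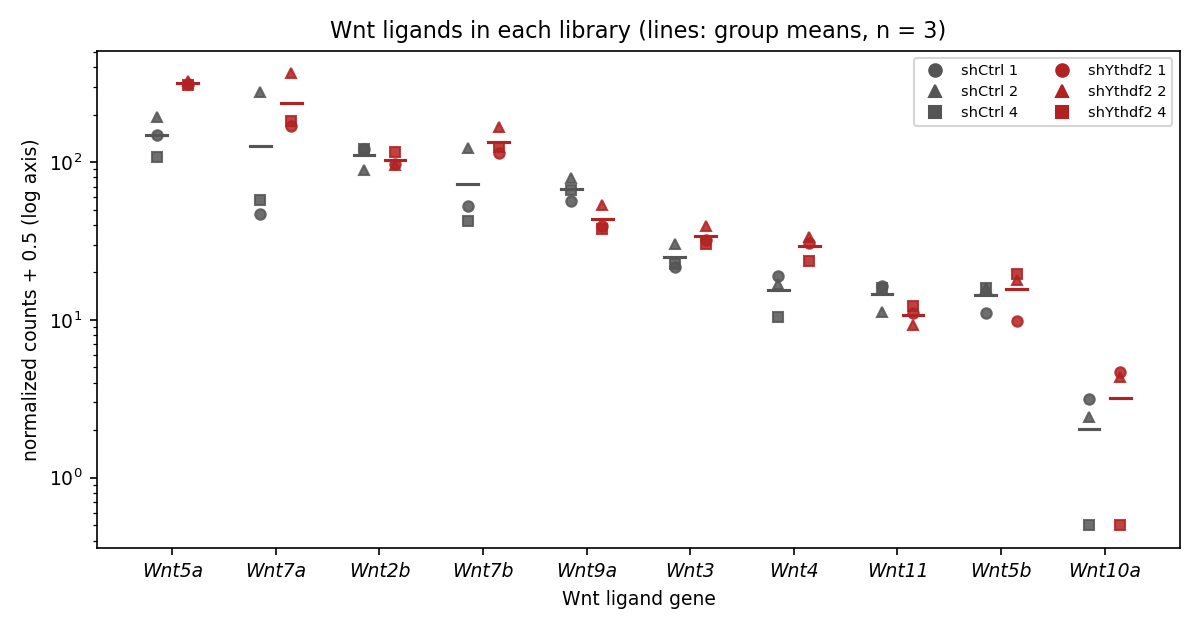
Normalized counts plus 0.5 of the 10 Wnt ligands on a log axis, with 1 point per library (circle, triangle and square for libraries 1, 2 and 4) and a line at each group mean (n = 3). The shYthdf2 points of Wnt5a (308 to 325) lie above its shCtrl points (107 to 192), and the library 2 triangles of Wnt7a lie above the other points of their group.

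Of the 10 ligands, 9 passed the filter, 6 with a higher and 3 with a lower estimate after YTHDF2 KD. The median log2 fold change of the 9 was 0.45, against 0.01 over all genes tested. None passed the adjusted threshold in edgeR (0 of 9, where 0.604% of all genes tested did so). At an unadjusted p under 0.05 there were 3 of 9 (Wnt5a and Wnt4 higher, Wnt9a lower), against 20.1% of all genes tested. DESeq2 called 1 of the 7 ligands it gave an adjusted p for (8.88% of its genes), and limma-voom called 0. With the replicate block 0 ligands passed (1.35% of genes). Without shCtrl library 2 there were 3, namely Wnt5a, Wnt7a and Wnt7b (18.3% of genes), and with a batch term for library 2 there were 4, with Wnt9a added (22.1% of genes). The shYthdf2 libraries lay entirely above the shCtrl libraries for 2 of 9 ligands (Wnt5a and Wnt4, against 12.6% of genes) and entirely below for 1 (Wnt9a, against 13.4%). The other 6 overlapped.

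**Figure D2:**
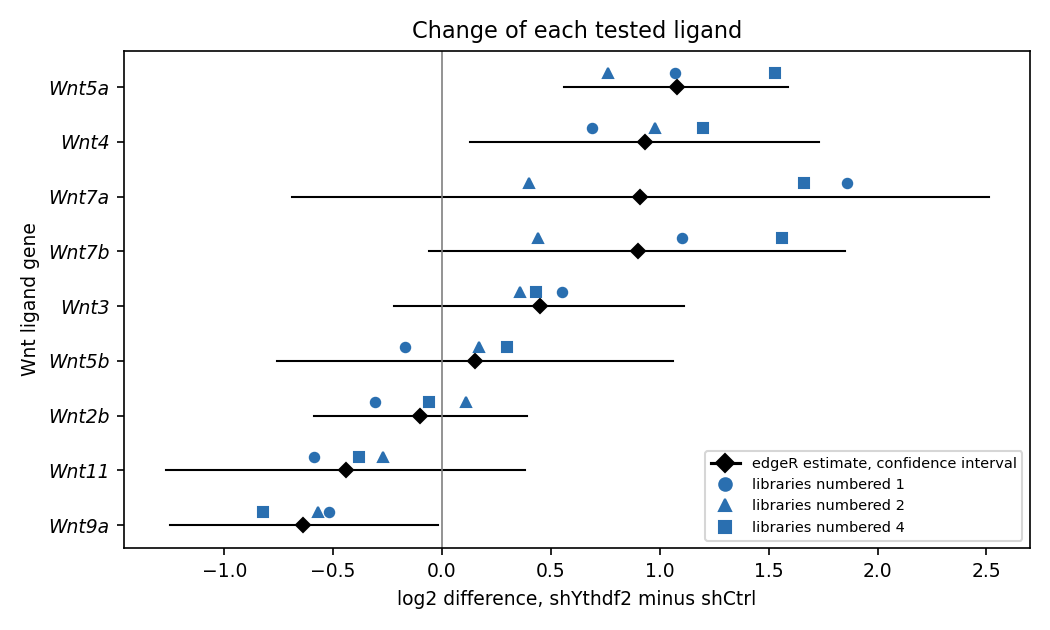
Log2 difference between shYthdf2 and shCtrl for the 9 tested ligands, as the edgeR estimate with its 95% interval (black) and as the difference between libraries of the same number (blue). The intervals of Wnt5a (0.56 to 1.59) and Wnt4 (0.13 to 1.73) lie above 0, that of Wnt9a (-1.25 to -0.02) lies below 0, and the other 6 span 0.

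Wnt4, a ligand needed for kidney tubule formation and female reproductive development, had an estimate near that of Wnt5a at a much lower level per kb. Wnt4 (chr4:137277489-137299726, plus strand) had 30.3, 33.0 and 23.3 normalized counts in shYthdf2 libraries 1, 2 and 4 and 18.6, 16.5 and 9.89 in shCtrl. The groups did not overlap, and the differences within library numbers were 0.69, 0.98 and 1.20 on the log2 scale. Its log2 fold change was 0.93 (SE 0.34, 95% interval 0.13 to 1.73), with an adjusted p = 0.193 in edgeR's test. Over 13 alternatives it stayed between 0.71 and 1.11, and the lowest adjusted p was 0.0719.

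Wnt9a, known for its part in joint formation, was the 1 ligand whose shYthdf2 libraries all lay below the shCtrl libraries. Wnt9a (chr11:59306928-59333552, plus strand) had 38.7, 53.3 and 37.1 normalized counts in shYthdf2 and 55.9, 79.4 and 65.9 in shCtrl. Every shYthdf2 library lay below every shCtrl library, and library 2 was the highest within each group. On average this was 43.1 ± 8.93 against 67.1 ± 11.8 (SD, n = 3 each), or 64.2% of control. Its log2 fold change was -0.64 (SE 0.26, 95% interval -1.25 to -0.02), with an adjusted p = 0.236 in edgeR's test. The batch term for library 2 gave an adjusted p = 0.0426, at the same log2 fold change.

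Wnt7a and Wnt7b, paralogs that also act on brain vessels, varied with the library number as well as between the groups. Wnt7a (chr6:91363981-91411363, minus strand) had 168, 365 and 181 normalized counts in shYthdf2 libraries 1, 2 and 4 and 46.1, 277 and 57.1 in shCtrl. Control library 2 was above knockdown libraries 1 and 4, so the groups overlapped. Within library numbers, shYthdf2 was higher by 1.86, 0.40 and 1.66 on the log2 scale, whereas library 2 exceeded libraries 1 and 4 by 2.42 in shCtrl and by 1.06 in shYthdf2. Over all libraries the log2 fold change was 0.91 (SE 0.68, 95% interval -0.69 to 2.51, adjusted p = 0.502 in edgeR's test). Without shCtrl library 2 it was 2.21 (adjusted p = 0.0162).

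Wnt7b (chr15:85535437-85582473, minus strand) was also highest in library 2 of each group. It had 113, 166 and 124 normalized counts in shYthdf2 and 52.3, 122 and 41.7 in shCtrl, so that control library 2 lay between the knockdown libraries. Within library numbers the differences were 1.10, 0.44 and 1.56. Its log2 fold change was 0.90 (SE 0.41, 95% interval -0.06 to 1.85, adjusted p = 0.275 in edgeR's test), and 1.51 without shCtrl library 2 (adjusted p = 0.0123).

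Single markers of GCs and of other cell types varied with the same libraries. Of the GC markers, Cbln3 had 959, 2240 and 980 normalized counts in shYthdf2 and 290, 1811 and 276 in shCtrl, and Gabra6 had 518, 1357 and 552 against 432, 1209 and 408. Both are known from maturing GCs, and both were highest in library 2 of each group, as Wnt7a and Wnt7b were. So were the GC markers Etv1, Slc17a7 and Grin2c. Pax6 was lowest in library 2, at 8798 against 11242 and 11675 in shYthdf2 and 9678 against 11777 and 11827 in shCtrl. For Neurod1, Zic1, Zic2 and Rbfox3, library 2 was neither the highest nor the lowest of both groups. Summed markers of the oligodendrocyte lineage were 12224, 16101 and 12535 normalized counts in shYthdf2 and 4717, 15513 and 4479 in shCtrl. Those of astrocytes and Bergmann glia were 10435, 9902 and 10283 in shYthdf2 and 5022, 11559 and 5128 in shCtrl, so control library 2 resembled the knockdown libraries. All 6 oligodendrocyte and all 7 astrocyte markers had higher estimates after KD. So did all tested markers of fibroblasts and meninges (7), microglia (5), vascular cells (4) and proliferating progenitors (4). Of GC markers 7 were higher and 3 lower, and of GABAergic interneurons 4 and 2. For Purkinje cells these numbers were 1 and 4, and for choroid plexus and ependyma 2 and 3. In each of these lists 0 passed the adjusted threshold in edgeR (0.604% of all genes tested did so). At an unadjusted p under 0.05 there were 0 or 1 in each list, against 20.1% of all genes tested. For fibroblasts and meninges, library 2 held 10363 (shYthdf2) and 8505 (shCtrl) against 2953 to 4099 in the other 4 libraries. Microglial markers summed to 286 to 746 in shYthdf2 and 133 to 524 in shCtrl, and vascular markers to 405 to 760 and 294 to 464. Markers of GABAergic interneurons were 7559 to 8114 in shYthdf2 and 6267 to 6538 in shCtrl, mostly through Gad1 (4307 to 5167 against 3100 to 3636), while the median log2 fold change of the 6 was 0.07. Markers of proliferating progenitors were 1030 to 1427 and 710 to 1211, and those of Purkinje cells 709 to 1019 and 857 to 938. No list held a marker at 0 in every library. The part of these cells in the levels of Wnt7a, Wnt7b or the other ligands was not tested.

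**Figure D3:**
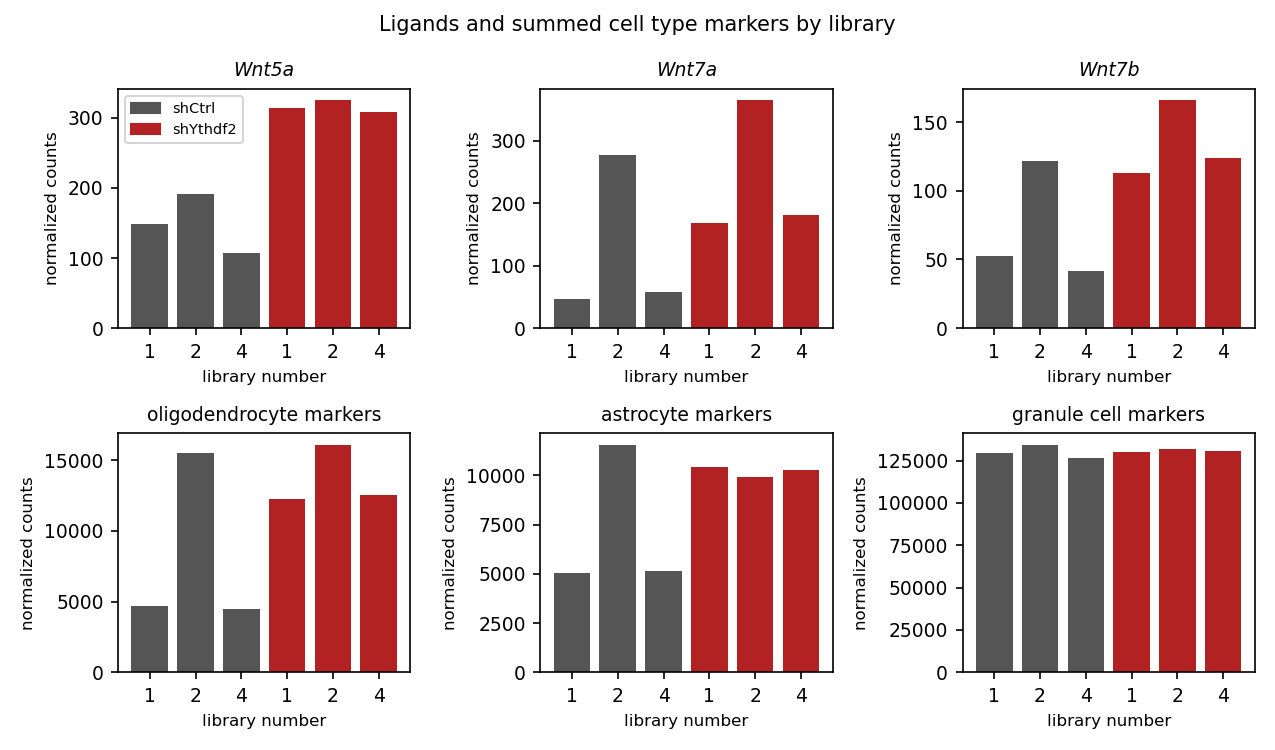
Normalized counts of Wnt5a, Wnt7a and Wnt7b and summed normalized counts of markers of oligodendrocytes, astrocytes and granule cells in libraries 1, 2 and 4 of shCtrl (grey) and shYthdf2 (red), with axes from 0. Library 2 of shCtrl is the highest control library for Wnt7a, Wnt7b and both glial lists, and the granule cell sum, of which Zic1 alone gives 60665 to 66405, is between 126834 and 134431.

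The other ligands had differences within their spread. Wnt3, known in the cerebellum from Purkinje cells, had 31.4, 38.8 and 29.7 normalized counts in shYthdf2 and 21.3, 30.0 and 22.0 in shCtrl. Its groups overlapped by a small margin, since shYthdf2 library 4 (29.7) was under shCtrl library 2 (30.0), and the shYthdf2 library was the higher one within all 3 numbers. The log2 fold change was 0.45 (95% interval -0.22 to 1.11, adjusted p = 0.428 in edgeR's test).

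Wnt2b, a ligand of lung and eye development that acts through beta-catenin, had 97.2, 95.0 and 116 normalized counts in shYthdf2 and 121, 88.2 and 121 in shCtrl. The groups overlapped, and the interval of the log2 fold change (-0.10, from -0.59 to 0.39) lay below the Wnt5a estimate of 1.08. Wnt11, known from kidney branching and from cell movements in the embryo, had 10.5, 8.73 and 11.7 normalized counts in shYthdf2 and 16.0, 10.7 and 15.4 in shCtrl. Its log2 fold change was -0.44 (95% interval -1.27 to 0.38). The groups of Wnt11 overlapped, with differences of -0.59, -0.27 and -0.38 within library numbers 1, 2 and 4, and its sign held in 13 of 13 alternatives. Wnt2b and Wnt11 were both lowest in library 2 of either group. So were the summed markers of choroid plexus and ependyma, at 1547 (shYthdf2) and 1502 (shCtrl) in library 2 and 2481 to 2910 in the others. Most of this drop was Ttr, at 16.5 (shYthdf2) and 27.1 (shCtrl) in library 2 and 738 to 890 in the others. Otx2 gave 1052 to 1624 of each sum. Folr1 was highest in library 2 of shCtrl, and Kl was not lowest in library 2 of either group. The part of these cells in the levels of Wnt2b and Wnt11 was not tested.

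Wnt5b, the closest paralog of Wnt5a, had no detectable difference at this depth. It had 9.41, 17.5 and 19.1 normalized counts in shYthdf2 and 10.6, 15.5 and 15.4 in shCtrl, and the groups overlapped. The log2 fold change was 0.15 (95% interval -0.76 to 1.06), and it turned to -0.03 without shYthdf2 library 4 and to -0.02 without shCtrl library 1. Wnt5b overlaps Fbxl14 on the other strand, which had 587 to 1044 counts, and since strand use is not stated, its 9 to 18 counts are uncertain. Wnt10a, a ligand of tooth and hair development, did not pass the filter, at 4, 4 and 0 counts in shYthdf2 and 3, 2 and 0 in shCtrl. Wnt4, Wnt5b and Wnt11 passed it with under 10 counts in at least 1 library.

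Levels were compared between ligands as normalized counts per kb of merged exons. In shCtrl, Wnt5a (19.1 ± 5.45, SD, n = 3) stood behind Wnt7a (40.0 ± 41.1), Wnt2b (26.2 ± 4.48) and Wnt9a (20.1 ± 3.55), and ahead of Wnt7b (14.7 ± 8.91). The ranges of neighbours among these overlapped. Below them came Wnt3 (7.94 ± 1.58), Wnt5b (5.22 ± 1.04), Wnt4 (3.58 ± 1.09), Wnt11 (3.38 ± 0.704) and Wnt10a (0.621 ± 0.558), where the neighbours Wnt3 and Wnt5b, and Wnt11 and Wnt10a, did not overlap. 

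In shYthdf2, Wnt5a (40.3 ± 1.1, SD, n = 3) stood in level per kb only behind Wnt7a (75.1 ± 34.6) and ahead of Wnt7b (27.4 ± 5.69) and Wnt2b (24.4 ± 2.7). Its range overlapped with neither of its neighbours. After these came Wnt9a (12.9 ± 2.68), Wnt3 (10.8 ± 1.57), Wnt4 (6.89 ± 1.18), Wnt5b (5.77 ± 1.95), Wnt11 (2.49 ± 0.358) and Wnt10a (1.09 ± 0.945). The neighbours that overlapped were Wnt7b and Wnt2b, Wnt9a and Wnt3, and Wnt4 and Wnt5b. Wnt5a had rank 2 in all 3 shYthdf2 libraries, and ranks 2, 3 and 4 in shCtrl libraries 1, 2 and 4. Wnt2b had rank 1 in shCtrl libraries 1 and 4, and rank 3 or 4 in the shYthdf2 libraries. Per kb, Wnt5a and Wnt9a had like levels in shCtrl (19.0, 24.5 and 13.6 against 16.8, 23.9 and 19.8), while in shYthdf2 Wnt5a stood at 39.3 to 41.5 and Wnt9a at 11.2 to 16.0.

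The level per kb summed over the 10 ligands was 176, 260 and 186 in shYthdf2 and 110, 205 and 108 in shCtrl. Wnt5a made up 22.8%, 16.0% and 21.2% of this sum in shYthdf2 and 17.3%, 12% and 12.6% in shCtrl. Its share was 5.99 percentage points higher on average, but the groups overlapped, because shYthdf2 library 2 (16.0%) was under shCtrl library 1 (17.3%). The share of Wnt9a was 6.6%, 6.17% and 6.0% in shYthdf2 and 15.2%, 11.7% and 18.4% in shCtrl, with no overlap. Wnt7a made up 42.7% of the sum in shCtrl library 2 and 13.2% and 16.7% in libraries 1 and 4.

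**Figure D4:**
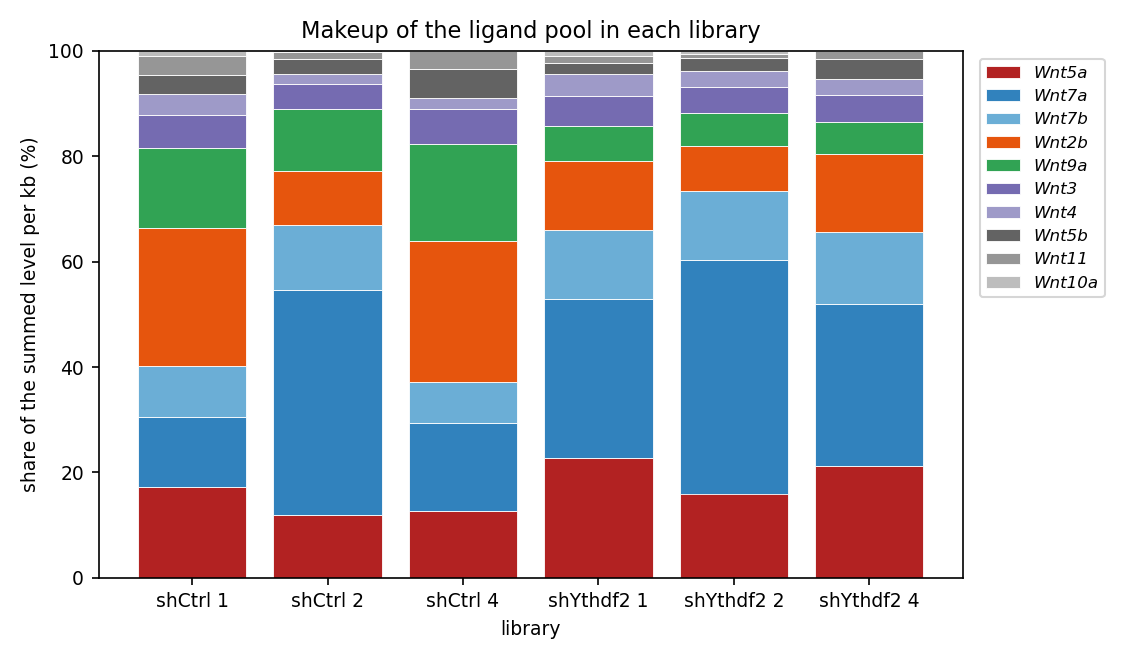
Share of each of the 10 Wnt ligands (stacked colours, in percent) in the summed level per kb of exon, with 1 bar per library. The Wnt9a segment is 6.0% to 6.6% in shYthdf2 and 11.7% to 18.4% in shCtrl, and the Wnt7a segment of shCtrl library 2 (42.7%) is close to that of shYthdf2 library 2 (44.3%).

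Ratios within a library do not depend on the scaling between libraries, and they place Wnt5a directly against each other ligand. The ratio of Wnt5a to Wnt9a was 3.00, 2.60 and 3.03 on the log2 scale in shYthdf2 and 1.41, 1.27 and 0.69 in shCtrl, a difference of 1.76 between the means. It was the widest of the 9, followed by the ratios to Wnt11 (1.53), Wnt2b (1.21), Wnt5b (1.02) and Wnt3 (0.67). For these 5 the groups did not overlap (exact two-sided permutation test, p = 0.1 each, the lowest value 3 against 3 can reach, 0.18 after Benjamini-Hochberg adjustment over 9 ratios). The same held for 73.0% of all other genes tested, so 5 of 9 is no more than the background.

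Against the ligands whose estimates were nearest to its own, the groups overlapped. The difference was 0.16 for Wnt4, 0.08 for Wnt7b and -0.19 for Wnt7a, with exact permutation p from 0.6 to 0.9. The sign for Wnt7a and Wnt7b depended on single libraries. When 1 library at a time was left out, the difference ran from -0.79 (without shCtrl library 2) to 0.31 (without shCtrl library 1) for Wnt7a, and from -0.17 (without shCtrl library 2) to 0.25 (without shCtrl library 1) for Wnt7b. Within library numbers, the ratio to Wnt7a differed by -0.79, 0.36 and -0.13 and the ratio to Wnt7b by -0.03, 0.32 and -0.03. Wnt10a, at 0 to 4 counts, had a difference of 0.65 (exact permutation p = 0.7), which rests on the 0.5 counts added to each gene and was -0.36 without shYthdf2 library 4.

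**Figure D5:**
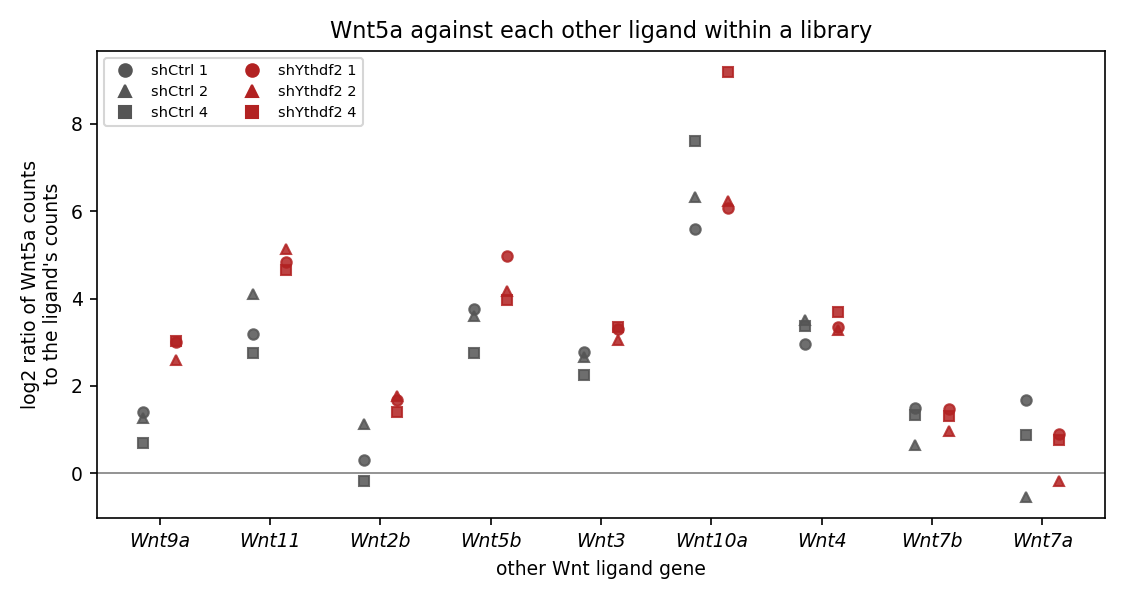
Log2 ratio of Wnt5a counts to the counts of each other ligand, with 0.5 added to both, for each library (circle, triangle and square for libraries 1, 2 and 4). Red shYthdf2 points lie above all grey shCtrl points for Wnt9a, Wnt11, Wnt2b, Wnt5b and Wnt3, and the groups mix for Wnt10a, Wnt4, Wnt7b and Wnt7a.

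Of the other 9 Wnt ligand genes, 1 passed the filter. This was Wnt9b, with 15.7, 47.5 and 25.5 normalized counts in shYthdf2 and 16.0, 32.0 and 13.2 in shCtrl (log2 fold change 0.54, adjusted p = 0.603 in edgeR's test). The other 8 did not pass the filter and had at most 11 counts in any library, which was Wnt6. Wnt8a had 0 counts in every library, where a count of 0 still allows up to 3 by counting error.

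Around the ligands, 75 further Wnt pathway genes were listed, and 52 were tested, 30 higher and 22 lower, with a median log2 fold change of 0.13. Znrf3, a ubiquitin ligase that removes Frizzled receptors, was the 1 gene of 52 past the adjusted threshold in edgeR, against 0.604% of all genes tested. It was at 935, 851 and 954 normalized counts in shYthdf2 and 462, 529 and 406 in shCtrl, with a log2 fold change of 0.97 (SE 0.13, adjusted p = 0.0447). It lost that call without either shYthdf2 library 1 or 4 and without shCtrl library 1 or 4. At an unadjusted p under 0.05 there were 9 higher and 7 lower genes of the 52, against 20.1% of all genes tested.

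Of the 8 genes that lipidate or carry Wnts, 1 had an unadjusted p under 0.05, where 20.1% of all genes tested did, and 0 passed the adjusted threshold. That was Porcn, the Wnt acyltransferase, with means of 5292 and 3860 normalized counts in shYthdf2 and shCtrl, overlapping groups and a log2 fold change of 0.45 (adjusted p = 0.222 in edgeR's test). For Wls, the Wnt carrier, it was 0.38 (adjusted p = 0.315). Both were named after their values were seen.

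Of 16 receptors and co-receptors, 15 were tested, 0 passed the adjusted threshold, and at an unadjusted p under 0.05 there were 4 lower and 0 higher (against 20.1% of all genes tested in either direction). The groups lay apart, with shYthdf2 lower, for 4 of the 15 (against 13.4% of all genes), which were Fzd9 (log2 fold change -0.38, adjusted p = 0.406), named after its values were seen, Fzd8, a Frizzled receptor (log2 fold change -0.89), Ptk7, a polarity co-receptor (-0.46), and Ryk, a Wnt5a receptor of axons (-0.25), the last 3 with adjusted p from 0.0663 to 0.207. Ror1, a Wnt5a receptor kinase named after its values were seen, was at 519, 420 and 526 normalized counts in shYthdf2 and 1082, 503 and 1068 in shCtrl. Its groups overlapped, since shCtrl library 2 lay under shYthdf2 libraries 1 and 4.

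Among 11 tested genes of the planar polarity branch, 4 were higher and 1 lower at an unadjusted p under 0.05 (against 20.1% of all genes tested in either direction), and 0 passed the adjusted threshold. Daam2 and Daam1, formins that act with Dishevelled on actin, had log2 fold changes of 0.86 and 0.31, and the core polarity genes Celsr1 and Vangl2 had 0.55 and 0.25. Dvl1, a Dishevelled that relays the Frizzled signal, had -0.63. Adjusted p-values of these 5 in edgeR's test ran from 0.0615 to 0.231.

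Among 8 tested extracellular modulators, Rspo2, which potentiates Wnt signalling, and the glypican Gpc4 had log2 fold changes of 0.66 and 0.63, and Sfrp1, a secreted Wnt antagonist, had -0.40, with adjusted p from 0.115 to 0.246 in edgeR's test. Of 9 tested feedback targets of beta-catenin, 2 had shYthdf2 entirely above shCtrl (against 12.6% of all genes), Znrf3 and Axin2, which scaffolds beta-catenin destruction (log2 fold change 0.28, adjusted p = 0.203). Nkd2, an inhibitor of Dishevelled named after its values were seen, had the opposite sign, with 17.8, 18.4 and 27.6 normalized counts in shYthdf2 and 69.2, 22.3 and 59.3 in shCtrl (log2 fold change -1.24, adjusted p = 0.193), and its groups overlapped through shCtrl library 2.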

How the data were processed

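The authors deposited 1 table of read counts per gene, whole numbers without normalization. By the study's methods, reads were filtered, aligned to GRCm38 (HISAT, TopHat2) and counted per gene (HTSeq), whereas the submitters' processing notes name mm9 and Bowtie 0.12.2. The labels and the study's methods name different library kits, and strand use is not given in the sources used here. Gene identifiers were matched to a GRCm38 annotation (52489 of 53421, with 785 outside it).

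Counts were tested with edgeR 4.0.16 (R 4.3.3) on all 6 libraries, shYthdf2 against shCtrl, after filterByExpr (minimum count 10, minimum total 15) and TMM normalization, by the quasi-likelihood test with p-values adjusted by Benjamini-Hochberg over 17214 genes. Single values were compared by exact permutation tests, and the tests were checked on simulated data. Alternatives were RLE factors, plain library size, DESeq2 1.42.0, limma-voom (limma 3.58.1), other filters, a replicate block, a batch term for library 2, and each library left out. Deviations from group means correlated at 0.252, 0.36 and 0.322 between the shYthdf2 and shCtrl libraries numbered 1, 2 and 4. Library 2 lay apart in both groups, so libraries 1 and 4 deviate alike, and differently numbered libraries were not compared in this way. Whether 1 pairs with 1 and 4 with 4 was therefore not shown, and the replicate block was used only as an alternative. Depth was 17246821 to 21546595 counts, and floors on counts cover counting error only. The intervals of the log2 fold changes come from edgeR's quasi-likelihood fit and also include the spread between the libraries of a group. The named genes were the ligands, Ythdf2, other Wnt ligands, and pathway genes with an adjusted p under 0.05 or an unadjusted p under 0.05 with groups that do not overlap. The members and all lists were chosen with earlier results of these data known.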

Additional observations from a re-analysis of the deposited data

How the results depend on the processing

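The number of ligands past the adjusted threshold, 0 of 9 in the edgeR test, was 1 with DESeq2 and 1 without a filter. It was 4 with a batch term for library 2, and 0 to 3 with each library left out. Of all genes, 8.88% passed with DESeq2, 22.1% with the batch term and 18.3% without shCtrl library 2. For Wnt5a, the log2 fold change was 1.08 with DESeq2, 1.07 without a filter and 1.10 with the batch term, each past the threshold, 1.11 with the replicate block (adjusted p = 0.0532 in edgeR), and 0.88 to 1.30 with each library left out. For the pathway genes, the number past the threshold was 1 of 52 in the edgeR test, 0 with limma-voom and 3 without a filter. It was 7 of 50 with DESeq2 (against 8.88% of its genes) and 18 of 52 with the batch term (against 22.1% of genes). With each library left out it was 0 to 20, with 20 of 52 without shCtrl library 2 (against 18.3% of genes). Ythdf2 passed at -0.58 with DESeq2 and at -0.56 with the batch term. The cause of these moves was not tested. Wnt5b, at 0.15, ranged from -0.03 to 0.40 with each library left out, and was below 0 without shYthdf2 library 4 (-0.03) or shCtrl library 1 (-0.02). For the 8 ligands other than Wnt5a, 102 of 109 values kept direction and side of the threshold. The replicate block changed no call of a ligand, of Ythdf2 or of the count of pathway genes. The share of Wnt5a stayed 4.60 to 9.11 percentage points higher in the alternatives tried, and the number of its 9 ratios with groups apart was 5 or, with 5 counts added, 6. The ratios to Wnt7a, Wnt7b and Wnt10a changed sign with single libraries left out. Depth limits Wnt10a, Wnt5b, Wnt11 and Wnt4, with 0 to 34 counts in a library.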
